A study of Mus musculus with 19 samples.

Results

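Collagens are the proteins that form most of the fibrous matrix between kidney cells and the network of every basement membrane. Their genes were taken here as the protein-coding rows of the count table whose symbol is Col, a type number, the letter a and a chain number. This gave 44 collagen genes of 54532 rows in all. Members were taken by symbol and biotype, and the collagen genes as a set were picked with earlier results of these data known. The genes lie on 15 chromosomes of GRCm38, and the start, end and strand of all 44 were the same in the GENCODE vM21 annotation.

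The kidneys came from male C57BL/6J-background mice, aged 8 to 9 weeks, and every mouse had undergone unilateral ureteral obstruction (UUO), in which the left ureter was tied off and cut so that the blocked kidney becomes fibrotic. RNA of the whole obstructed kidney was sequenced on day 12 after surgery, following perfusion with heparin. Mice were wild type (WT) or lacked CD5L (CD5L KO), a circulating protein made by macrophages and also called AIM. Each genotype received daily intraperitoneal injections of PBS, or of recombinant mouse CD5L (rCD5L) in an equal volume at 0.5 mg per mouse and injection. The recombinant protein was made in CHO-S cells, a hamster ovary line. This gave 5 WT kidneys with PBS, 5 WT kidneys with rCD5L, 4 CD5L KO kidneys with PBS and 5 CD5L KO kidneys with rCD5L. All groups share what limits the model: only male mice were used, the opposite kidney stayed in place, and all 19 libraries come from obstructed kidneys. Surgery alternated between groups, without formal randomisation or blinding. Each library is labelled as a biological replicate.

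A collagen molecule is built from wound chains that are hydroxylated, glycosylated and folded in the endoplasmic reticulum, secreted, trimmed at their ends and crosslinked outside the cell. Fibrillar collagens (types I, III and V in soft tissue) form the interstitial fibres that accumulate in kidney fibrosis, and are mostly made by fibroblasts, pericytes and myofibroblasts. Type IV collagens form the sheet of the tubular, capillary and glomerular basement membranes. The other classes decorate fibrils, anchor membranes to them, or span the plasma membrane. The question put to these genes was whether their RNA differed with the absence of CD5L and with its injection.

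Total counts ran from 17917491 to 23847090 per kidney, and collagen genes took 0.269% to 1.26% of them. Cd5l itself had 0 counts in each of the 9 CD5L KO kidneys and 3 to 15 counts in the 10 WT kidneys, as the labels say. A count of 0 allows up to 3 counts, and covers counting error only. A pair of libraries stood apart, both from CD5L KO mice given rCD5L. Replicate 4 had the lowest scaling factor (0.713), and its 6 proximal tubule markers summed to 10337 CPM (counts scaled by library size) against 880 to 2022 CPM in the other kidneys. Its macrophage markers summed to 543 CPM against at least 1464 CPM elsewhere. Replicate 3 had the highest collagen level of all kidneys and replicate 4 the lowest, so the main counts and medians with this group are also given without both. They were set apart partly by collagen level, so leaving both out narrows the spread of collagen values by that choice.

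Levels are given as FPKM, fragments scaled by gene length and library size, a per-length scale on which genes can be compared. Of the 44 genes, 16 had a mean of at least 10 FPKM over the 19 kidneys, 10 lay between 1 and 10 FPKM, and 18 were below 1 FPKM. The 6 genes with the highest levels were Col3a1 (135 FPKM), Col4a1 (126 FPKM), Col1a1 (107 FPKM), Col4a2 (105 FPKM), Col18a1 (99.4 FPKM) and Col1a2 (70.9 FPKM), and they held 72.3% of the summed collagen FPKM. The order differed between groups: in mean FPKM Col3a1 led in both WT groups, and Col4a1 in CD5L KO kidneys given PBS (99.5 against 89.7 FPKM) and rCD5L (119.6 against 101 FPKM). Neighbours in the order over all kidneys overlapped within the WT kidneys given PBS: Col3a1 ran from 127 to 202 FPKM there and Col4a1 from 116 to 143 FPKM. At the low end Col9a1, a cartilage chain, had no count in 17 of 19 kidneys and at most 2 counts in the others, and Col2a1, the main chain of cartilage, reached at most 15 counts.

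The summed collagen level differed between groups in its lowest and highest kidneys. In WT kidneys it had a median of 896 FPKM with PBS (872 to 1133 FPKM) and 1101 FPKM with rCD5L (909 to 1202 FPKM). In CD5L KO kidneys it had a median of 660 FPKM with PBS (616 to 709 FPKM) and 711 FPKM with rCD5L (383 to 1363 FPKM, or 590 to 912 FPKM with the same median without both kidneys that stood apart). The 4 CD5L KO kidneys given PBS therefore all lay below the lowest WT kidney of either treatment. Fibrillar genes made up a median of 42.1% of the collagen FPKM in WT kidneys given PBS and 36.9% in CD5L KO kidneys given PBS, and type IV genes 27.1% and 30.2%. These ranges overlapped between the genotypes for both classes.

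**Figure D1:**
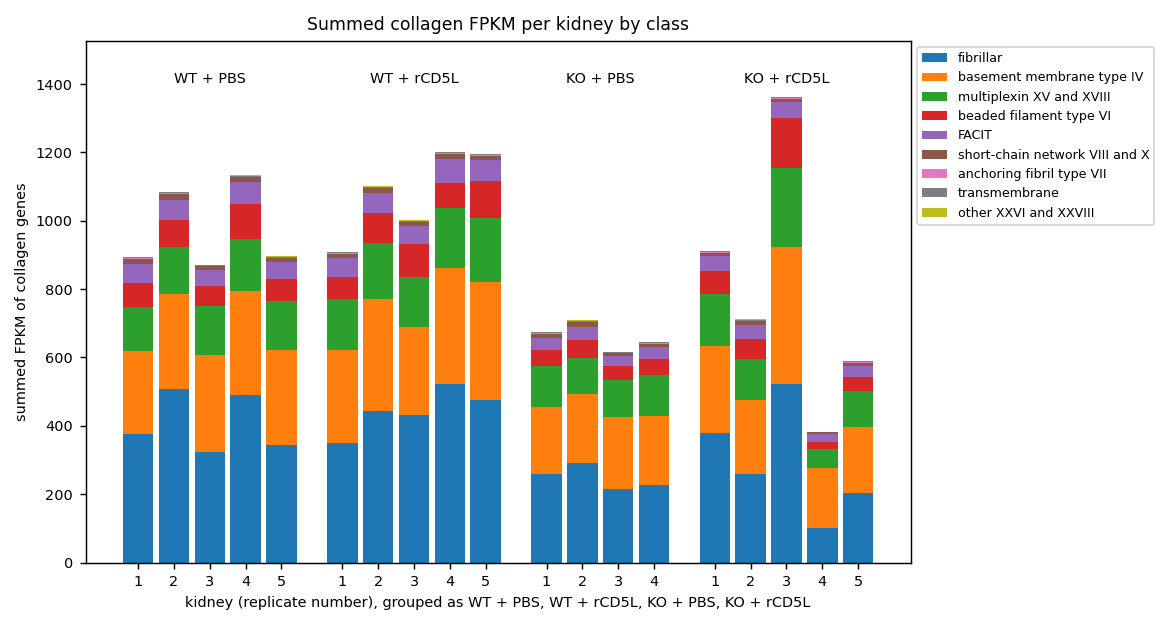
Summed FPKM of the collagen genes (vertical axis) in each of the 19 kidneys (horizontal axis, by group and replicate number), stacked by collagen class. The 4 CD5L KO kidneys given PBS end between 616 and 709 FPKM, while CD5L KO kidneys given rCD5L span 383 to 1363 FPKM.

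The first comparison asked how the obstructed kidney differs when CD5L is absent, and set the PBS-injected CD5L KO mice against PBS-injected WT mice. Collagen RNA was lower in the CD5L KO kidneys across most classes. Of 40 collagen genes that passed the filter on low counts, 17 fell at an adjusted p below 0.05 and 0 rose, which is 42.5% of those tested. Among all 17579 genes tested, 5.4% were called lower and 5.13% higher, and 10.5% in either direction. The median log2 fold change of the collagen genes was -0.52, against -0.0046 over all genes tested, and 36 of the 40 were below 0, as were 50.7% of all genes tested. On the scale of library-scaled counts, every CD5L KO kidney lay below every WT kidney for 17 of the 40, and for 6.84% of all genes tested. Those that fell were 6 of 10 fibrillar genes, 3 of 6 of type IV, 3 of 6 of type VI, 3 of 6 of the FACIT class, 1 of 2 of types XV and XVIII, and the only gene of type VII. Of the short-chain, transmembrane and remaining genes, 0 of 9 were called.

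The call rests on the spread among these 9 kidneys. With all 19 kidneys in 1 fit, which shares the spread of the group that held the libraries standing apart, 0 collagen genes were called and the lowest adjusted p was 0.0649, although 37 of 41 were lower and the median was -0.52. That fit called 12 genes of all 18454. With 17 kidneys in 1 fit, an alternative chosen after seeing the data that leaves out only that pair, 17 collagen genes were called again, 16 of them the same (Col4a4 in place of Col1a1), beside 2291 of 18724 genes in all. Collagen genes are long (median 7542.5 bases, against 3808 over all genes tested). An offset for gene length left 16 of the 17 calls and a median of -0.44, beside 1305 of 17579 genes called in all. In bulk tissue, fewer cells of a type and less RNA per cell cannot be told apart.

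**Figure D2:**
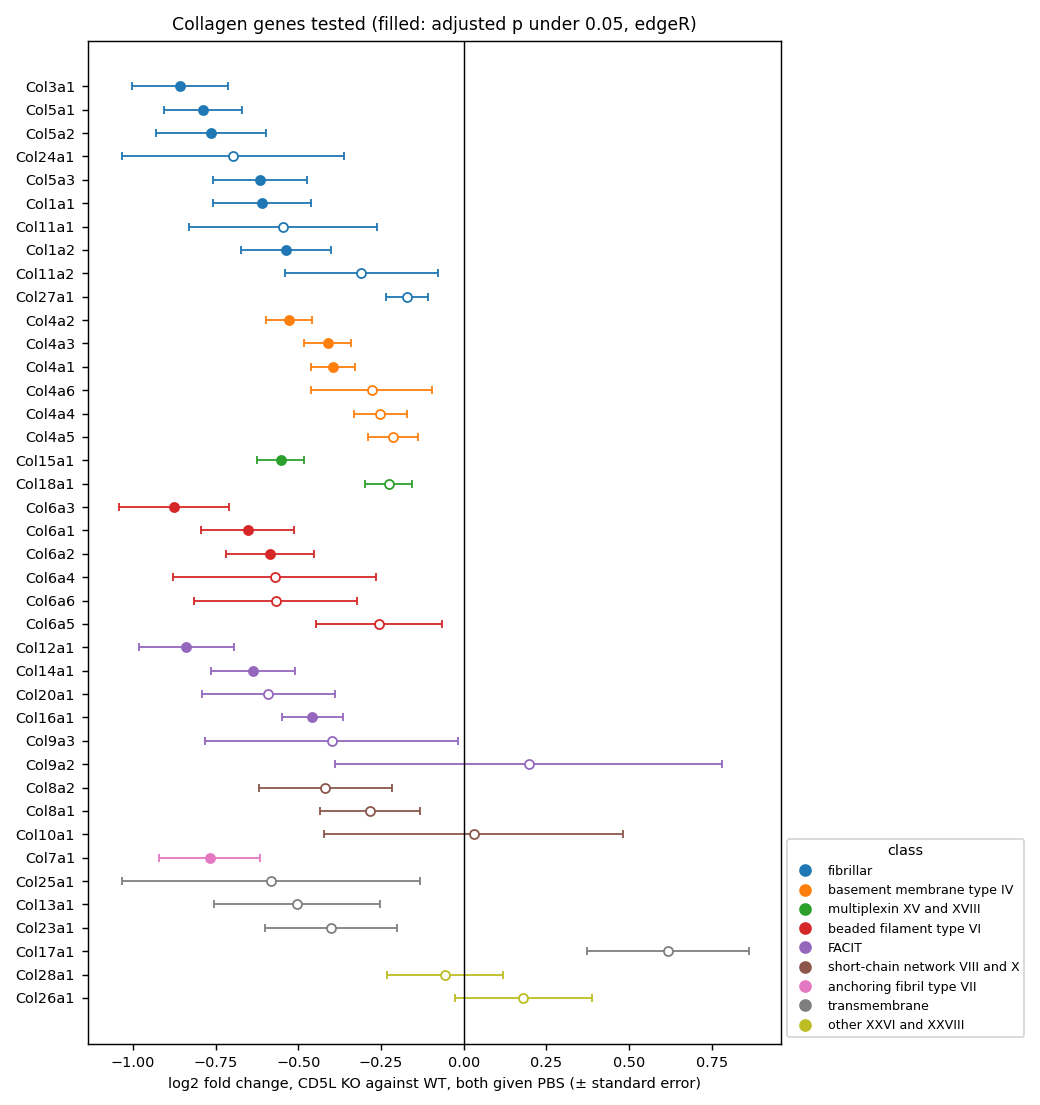
Log2 fold change of each of the 40 collagen genes tested (horizontal axis, with its standard error), CD5L KO against WT, both given PBS, ordered by class. Filled points have an adjusted p below 0.05 in edgeR, and all 17 of them lie left of 0. With all 19 kidneys in 1 fit 0 were called.

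Among the fibrillar genes the largest change was in Col3a1, the chain of type III collagen that runs with type I in reticular fibres. Col3a1 (ENSMUSG00000026043, chromosome 1, 45311538 to 45349706, plus strand) measured 151, 202, 127, 201 and 139.8 FPKM in the 5 WT kidneys given PBS. The CD5L KO kidneys given PBS had 94.6, 104, 79.96 and 80.2 FPKM, all below the lowest WT kidney. The mean was 164 ± 35.0 FPKM (SD, n = 5) in WT and 89.7 ± 11.8 FPKM (SD, n = 4) in CD5L KO, and the log2 fold change was -0.86, with a standard error of 0.14 and an adjusted p of 0.00643. Col5a1, the chain that starts fibril assembly as part of type V collagen, gave the lowest p of this class. It lies on chromosome 2 (ENSMUSG00000026837, 27886425 to 28039514, plus strand). WT kidneys had 14.7, 18.3, 13.2, 18.97 and 14.4 FPKM and CD5L KO kidneys 8.99, 10.9, 8.34 and 8.28 FPKM, without overlap. The change was -0.79 on the log2 scale, with a standard error of 0.12 and an adjusted p of 0.00506.

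The sequences before these starts are shown because Col3a1 and Col5a1 moved together while their upstream bases differ. Each is the 250 bases before the start in RefSeq (GRCm38.p6, plus strand), chr1:45311288-45311537 and chr2:27886175-27886424. Capitals mark the motifs searched on either strand, which were TATAAA (the TATA box), GGGCGG (a GC box) and CCAAT (the CCAAT box).
Col3a1: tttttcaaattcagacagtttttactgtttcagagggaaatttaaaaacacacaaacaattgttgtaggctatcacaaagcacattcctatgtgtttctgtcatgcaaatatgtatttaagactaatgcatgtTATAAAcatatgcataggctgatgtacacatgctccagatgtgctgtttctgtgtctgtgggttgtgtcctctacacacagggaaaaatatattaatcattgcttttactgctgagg
Col5a1: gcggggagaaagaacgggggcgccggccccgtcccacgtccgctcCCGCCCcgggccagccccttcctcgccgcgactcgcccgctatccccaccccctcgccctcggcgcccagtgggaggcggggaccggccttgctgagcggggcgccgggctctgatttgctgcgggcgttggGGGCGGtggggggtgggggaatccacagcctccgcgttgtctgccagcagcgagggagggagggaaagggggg
The Col3a1 bases held TATAAA at 1 place and are 35.2% G or C, while the Col5a1 bases held GGGCGG at 2 places, counting both strands, and are 76.4% G or C. Of 32851 upstream stretches of this length in the RefSeq table, 12.4% held the TATA box, 33.8% the CCAAT box and 32.7% the GC box. Of the 35 collagen genes found in that table, 5 held the TATA box, 13 the CCAAT box and 21 the GC box. Of the 12 found among the 17 genes that fell, these numbers were 1, 6 and 7. A gene was counted if any of its stretches held the motif, while the shares are per stretch, so the measures differ. A match is a run of letters and no measured site.

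Type I collagen is the main fibre of scar matrix, and both its chains fell. Col1a1 was lower in CD5L KO kidneys by 0.61 on the log2 scale (adjusted p = 0.0235) and Col1a2 by 0.54 (adjusted p = 0.0270), each without overlap between the groups. Levels were 117 ± 26.8 and 76.0 ± 9.75 FPKM for Col1a1 (SD, WT n = 5, CD5L KO n = 4), and 78.0 ± 14.5 and 53.3 ± 8.21 FPKM for Col1a2. Both calls depended on single kidneys. Without CD5L KO replicate 1, 3 or 4 or without WT replicate 4 the adjusted p of Col1a1 was 0.0509, 0.0654, 0.0623 and 0.0624, and that of Col1a2 was 0.0531, 0.0732, 0.0771 and 0.0696. Without WT replicate 2 it was 0.0593 for Col1a2. The other type V chains also fell, Col5a2 by 0.77 (adjusted p = 0.0146, with groups that overlapped in scaled counts) and Col5a3 by 0.62 (adjusted p = 0.0187, or 0.0524 without CD5L KO replicate 1). In limma on log2 FPKM the calls of Col1a1, Col1a2 and Col5a3 were lost, with adjusted p from 0.0556 to 0.0722. The remaining fibrillar genes tested, Col24a1 (-0.70), Col11a1 (-0.55), Col11a2 (-0.31) and Col27a1 (-0.17), had log2 fold changes below 0 that did not pass, with adjusted p from 0.108 to 0.427. Col2a1 was too low to be tested.

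FACIT collagens sit on the surface of fibrils and link them to other matrix. Col14a1 was their most abundant gene, at 19.2 FPKM over all kidneys. WT kidneys had 25.2, 23.1, 19.4, 24.1 and 20.7 FPKM of Col14a1 and CD5L KO kidneys 14.4, 16.4, 10.2 and 16.3 FPKM. These ranges did not overlap, and the gene fell by 0.64 on the log2 scale (adjusted p = 0.0103). Col12a1, which binds type I fibrils in tissue under tension, measured 19.9, 23.2, 16.1, 24.3 and 17.2 FPKM in WT and 11.99, 13.8, 9.29 and 9.56 FPKM in CD5L KO kidneys. The difference was -0.84 on the log2 scale, with a standard error of 0.14 and an adjusted p of 0.00671, and the groups did not overlap. Col16a1 had 10.8, 11.5, 9.498, 12.7 and 9.503 FPKM in WT and 6.88, 8.27, 8.005 and 8.05 FPKM in CD5L KO kidneys, and fell by 0.46 (adjusted p = 0.0102), again without overlap. Of the other members, Col20a1 had lower values in every CD5L KO kidney but did not pass (-0.59, adjusted p = 0.0826), although DESeq2 called it, and Col9a3 (-0.40) and Col9a2 (0.20) were at 0.173 FPKM or less in both group means. Col9a1, Col19a1 and Col22a1 were not tested here.

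Type IV chains are encoded in pairs that start next to each other on opposite strands. Col4a1 and Col4a2, the chains found in nearly all basement membranes, share chromosome 8 (11198423 to 11312826, minus strand, and 11312805 to 11449287, plus strand), so that the annotated starts of the genes overlap. Col4a1 measured 116, 132, 135, 143 and 134 FPKM in WT and 94.98, 98.4, 105 and 99.7 FPKM in CD5L KO kidneys. It fell by 0.39 on the log2 scale (adjusted p = 0.00643), and every CD5L KO kidney was lower than every WT kidney. Col4a2 measured 97.7, 114, 114, 125 and 109.7 FPKM in WT and 73.99, 79.5, 79.1 and 75.05 FPKM in CD5L KO kidneys. It fell by 0.53 (adjusted p = 0.0047), the second lowest p among collagen genes. The spread among CD5L KO kidneys was small for both, with SDs of 4.08 and 2.78 FPKM.

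Col4a3, Col4a4 and Col4a5 form the network of the mature glomerular basement membrane, where podocytes make them. Col4a3 (chromosome 1, 82586921 to 82722059, plus strand) measured 10.1, 11.3, 12.1, 13.1 and 11.5 FPKM in WT and 8.82, 8.16, 8.93 and 8.78 FPKM in CD5L KO kidneys. It fell by 0.41 (adjusted p = 0.00659) with no overlap. Its exons share 5.65% of their bases with C430014B12Rik on the opposite strand, and reads of the pair cannot be told apart if strand was not used in counting. Its neighbour Col4a4 had a log2 fold change of -0.25 that did not pass (adjusted p = 0.0628), but was called by DESeq2, with 17 kidneys in 1 fit, and without CD5L KO replicate 3 or WT replicate 1. Col4a5 (-0.21, adjusted p = 0.0966) and Col4a6 (-0.28, adjusted p = 0.361), neighbours on chromosome X, did not pass either, and Col4a5 was called without WT replicate 1. The 71 bases between the starts of Col4a4 and Col4a3 are shown because both genes start beside them. The stretch is chr1:82586850-82586920 of GRCm38.p6 (RefSeq), read on the minus strand from Col4a3 towards Col4a4 and with none of the motifs named above, so no letter is in capitals.
Col4a4 to Col4a3 gap: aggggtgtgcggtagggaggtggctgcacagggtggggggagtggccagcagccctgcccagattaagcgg
Podocyte markers were lower with these chains: 6 of 6 had log2 fold changes below 0 and 1 of 6, Wt1, passed (-0.30, adjusted p = 0.0245). Their summed level ran from 626 to 728 CPM in WT and from 551 to 640 CPM in CD5L KO kidneys. Its part in the type IV values was not tested.

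Collagens XV and XVIII carry sugar chains and lie between basement membranes and the fibres below them, and the tail of collagen XVIII can be cut off as endostatin. Col15a1 (chromosome 4, 47208161 to 47313167, plus strand) had the lowest p of all collagen genes. WT kidneys measured 37.1, 45.3, 38.8, 43.4 and 41.5 FPKM and CD5L KO kidneys 30.5, 27.3, 26.5 and 27.2 FPKM. No CD5L KO kidney reached the lowest WT kidney, and the log2 fold change was -0.55, with a standard error of 0.07 and an adjusted p of 0.00464. Col18a1 was the more abundant of the class. It measured 90.95, 92.4, 105, 109 and 102 FPKM in WT and 88.7, 76.97, 82.1 and 90.3 FPKM in CD5L KO kidneys. The highest CD5L KO kidney lay just under the lowest WT kidney in FPKM, the groups overlapped in scaled counts, and the change of -0.23 did not pass (adjusted p = 0.0646). Without WT replicate 1 it passed (-0.26, adjusted p = 0.0461), as it did in DESeq2.

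Type VI collagen forms beaded filaments around cells from the chains of Col6a1, Col6a2 and a longer partner chain, usually that of Col6a3. All of these fell. Col6a1 measured 41.99, 45.4, 34.4, 58.9 and 34.9 FPKM in WT and 28.2, 29.8, 23.5 and 27.1 FPKM in CD5L KO kidneys, a fall of 0.65 (adjusted p = 0.0143). Col6a3 measured 13.9, 17.3, 12.2, 23.2 and 16.9 FPKM in WT and 7.76, 10.99, 7.92 and 9.46 FPKM in CD5L KO kidneys. With a fall of 0.88 (adjusted p = 0.00873) it had the largest log2 fold change of the 40 collagen genes tested here. Col6a2 fell by 0.59 (adjusted p = 0.0173), and the groups did not overlap for any of these chains. In limma on log2 FPKM the call of Col6a2 was lost, with an adjusted p just above 0.05 after adding a pseudocount of 0.1 and of 0.0573 after adding 1. The chains that can stand in for that of Col6a3 were scarce. Col6a4 (-0.57), Col6a5 (-0.26) and Col6a6 (-0.57) had mean levels of 1.10 FPKM or less in WT kidneys given PBS and did not pass (adjusted p from 0.163 to 0.429).

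The remaining classes held low levels. Col7a1, whose protein anchors epithelial basement membranes to the fibres below, measured 1.75, 2.17, 1.75, 2.900 and 2.003 FPKM in WT and 1.23, 1.48, 1.032 and 1.16 FPKM in CD5L KO kidneys. It fell by 0.77 (adjusted p = 0.0103) with no overlap. Col8a1, a short chain of hexagonal sheets around vessels, measured 8.52, 12.2, 7.797, 8.43 and 7.62 FPKM in WT and 7.83, 8.71, 5.48 and 7.05 FPKM in CD5L KO kidneys. The ranges overlapped and the change of -0.28 did not pass (adjusted p = 0.256). Col8a2 (-0.42) and Col10a1 (0.030) did not pass either. Col17a1, the transmembrane collagen of epithelial attachment plaques, was the only collagen gene with a higher level in CD5L KO kidneys at an unadjusted p below 0.05, a limit that 12.6% of all genes passed in that direction. It measured 1.45, 1.36, 0.703, 1.34 and 2.14 FPKM in WT and 1.97, 1.77, 1.92 and 2.89 FPKM in CD5L KO kidneys, with overlap, and its log2 fold change of 0.62 did not pass (adjusted p = 0.129). Without WT replicate 5 it passed (0.83, adjusted p = 0.0464). Urothelium markers stood in the same direction, with 5 of 5 above 0 and 0 called, and summed to 20.2 to 151 CPM in WT and 156 to 271 CPM in CD5L KO kidneys. Their part in the Col17a1 values was not tested. The other transmembrane genes, Col13a1 (-0.50), Col23a1 (-0.40) and Col25a1 (-0.58), did not pass. Col26a1 measured 0.414, 0.419, 0.872, 0.551 and 0.652 FPKM in WT and 0.582, 0.686, 0.652 and 0.691 FPKM in CD5L KO kidneys, with overlapping ranges and a log2 fold change of 0.18 (adjusted p = 0.629). Col28a1 had one of -0.057 (adjusted p = 0.873).

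**Figure D3:**
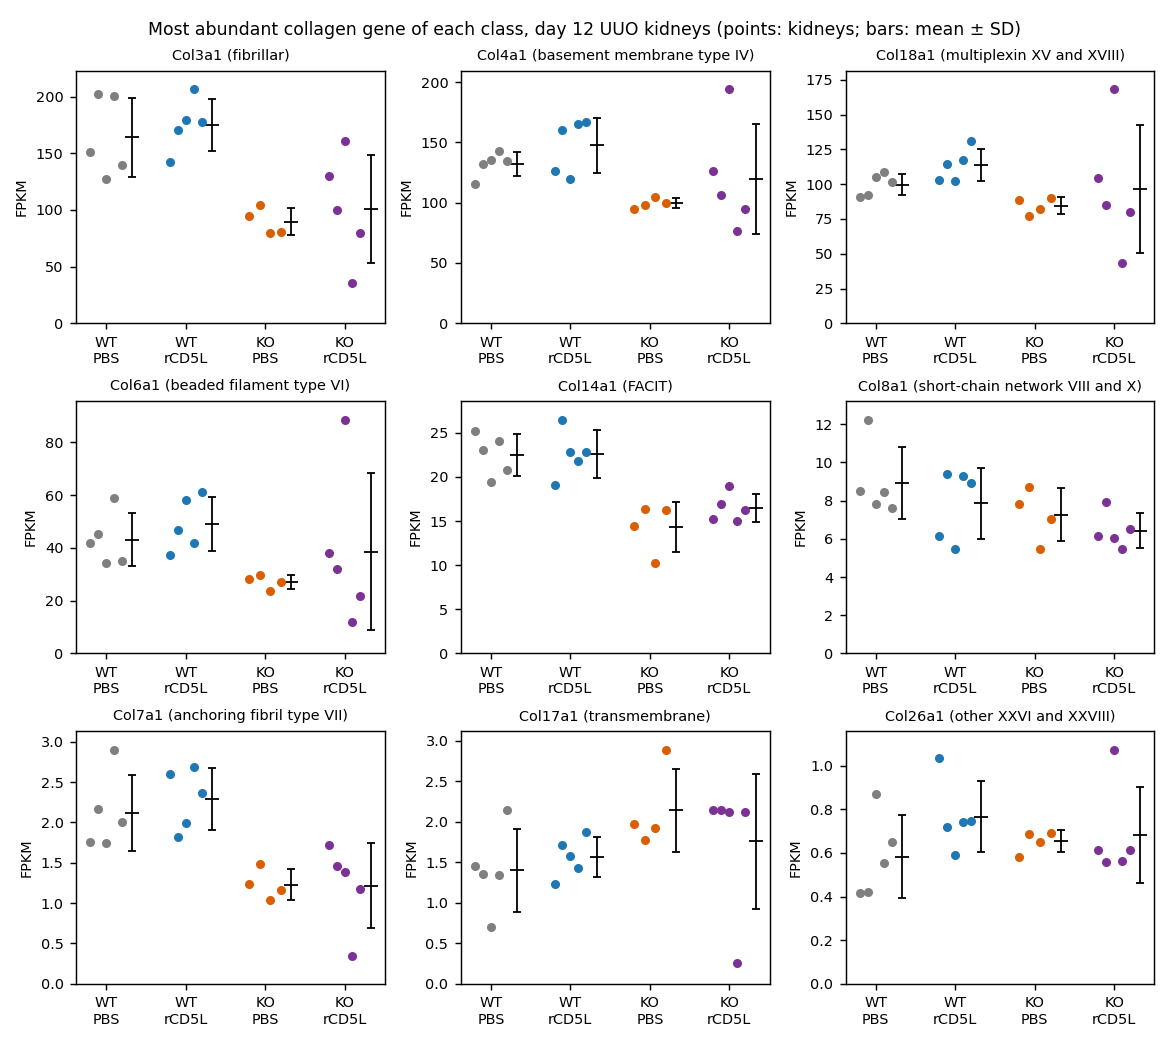
FPKM (vertical axes, from 0) of the most abundant gene of each of 9 collagen classes in the 4 groups, with 1 point per kidney and the mean ± SD as bars. With PBS, the CD5L KO points of Col3a1, Col4a1, Col6a1, Col14a1 and Col7a1 all lie below the WT points, and those of Col17a1 and Col26a1 do not.

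Some of the genes that make, trim, join and bind collagen fell in CD5L KO kidneys given PBS, and most did not pass. These counts stand beside 5.4% of all genes called lower. Of 20 genes for chain modification and folding, 5 fell and 0 rose, with a median log2 fold change of -0.18 and 3 of 20 above 0. They were the lysine hydroxylase genes Plod3 (-0.26, adjusted p = 0.00867) and Plod1 (-0.30, adjusted p = 0.0261), the proline hydroxylase gene P3h1 (-0.34, adjusted p = 0.00956), Crtap (-0.32, adjusted p = 0.0155), whose protein works in a complex with that of P3h1, and the chaperone gene Fkbp10 (-0.42, adjusted p = 0.0353), named after its value was seen. Of 12 genes tested for secretion and propeptide cleavage, 4 fell and 0 rose: Pcolce (-0.25), which enhances trimming, Adamts2 (-0.51) and Bmp1 (-0.38), which cut the ends of the chains, and Mia3 (-0.17), which loads collagen for export. Of 5 crosslinking enzymes, Loxl2 (-0.59, adjusted p = 0.00774) and Loxl3 (-0.56, adjusted p = 0.0497) fell and 0 rose.

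Matrix partners of collagen had the lowest median of these lists, -0.43, and 6 of 11 fell while 0 rose and 2 were above 0. Thbs1 (-0.65, adjusted p = 0.00497), Nid1 (-0.56, adjusted p = 0.0053), which ties type IV networks to laminin, Sparc (-0.57, adjusted p = 0.0072), a collagen-binding glycoprotein, and the proteoglycan gene Bgn (-0.43, adjusted p = 0.00754) had the lowest adjusted p. Of 8 genes for breakdown and uptake 2 fell, the uptake receptor Mrc2 (-0.48, adjusted p = 0.00497) and the gelatinase Mmp2 (-0.61, adjusted p = 0.0221), and 0 rose. Of 9 collagen receptor genes tested, Ddr2 (-0.30, adjusted p = 0.0220), a receptor for fibrillar collagen, fell and 0 rose.

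Markers of the cells that make collagen were measured beside these values. Of 10 fibroblast and myofibroblast markers, which include 3 matrix genes that also stand in the lists above, 4 fell and 0 rose: Pdgfra (-0.50, adjusted p = 0.0047), Pdgfrb (-0.42, adjusted p = 0.00677), Acta2 (-0.74, adjusted p = 0.0128) and Vim (-0.42, adjusted p = 0.0488). Of the other 6, 3 were below 0 and 3 above it, Dcn (0.049), Lum (0.10) and S100a4 (0.25), which were named after their values were seen. The summed level of the list overlapped, from 1814 to 2588 CPM in WT and from 1508 to 2030 CPM in CD5L KO kidneys. Of 6 endothelial markers 4 fell and 0 rose, Tie1 (-0.51, adjusted p = 0.00643), Pecam1 (-0.38, adjusted p = 0.00652), Cdh5 (-0.43, adjusted p = 0.0110) and Flt1 (-0.34, adjusted p = 0.0451), with sums of 581 to 673 CPM and 480 to 533 CPM. Of 6 macrophage markers 1 fell, Csf1r (-0.47, adjusted p = 0.0386), with overlapping sums of 1636 to 2173 CPM and 1464 to 2439 CPM. All 5 genes of the adipose list, Pck1 among them, had values above 0, with sums of 299 to 385 CPM and 291 to 536 CPM. The highest sum of this list, 1501 CPM, was in replicate 4 of the CD5L KO kidneys given rCD5L. That kidney also had the highest proximal tubule sum, so the list need not track adipose tissue alone. No marker of proximal tubule, distal segments, lymphocytes, urothelium, adipose tissue, cartilage and bone or epididymis was called. Only 1 of 6 cartilage and bone markers and 4 of 6 epididymis markers were high enough to be tested. The part of these cell types in the collagen values was not tested.

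The second comparison was CD5L KO against WT kidneys that had both received rCD5L. The same direction was seen in the values, but no collagen gene was called. Of 39 genes tested 36 (35 without both kidneys that stood apart) had a log2 fold change below 0, beside 51.1% of all genes, with a median of -0.39 against -0.011 over all genes. By edgeR's quasi-likelihood test 0 collagen genes and 0% of all 17360 genes passed, and DESeq2 called 1, Col4a5, among 64 of 31497 genes. At an unadjusted p below 0.05, 9 collagen genes were lower and 0 higher, which is 23.1% of those tested beside 6.8% of all genes lower and 11% higher. Single kidneys moved this count: in either direction it was 21 without CD5L KO replicate 3, 14 without replicate 4, 4 without replicate 5, 5 without WT replicate 4 and 27 without both CD5L KO kidneys that stood apart. The share of all genes at this limit was not counted in these refits, so these moves cannot be read as particular to collagen. The median was -0.62 without CD5L KO replicate 3 and -0.27 without replicate 4. The lowest p-values belonged to Col4a5 (-0.42 ± 0.090 on the log2 scale, standard error), Col14a1 (-0.44 ± 0.11), Col12a1 (-1.17 ± 0.37), Col7a1 (-0.90 ± 0.31) and Col3a1 (-0.79 ± 0.30), each with an adjusted p of 0.259. Col12a1 measured 25.1, 21.6, 18.2, 34.9 and 24.5 FPKM in WT and 17.1, 14.5, 12.1, 2.87 and 8.54 FPKM in CD5L KO kidneys. All 5 CD5L KO kidneys lay below all 5 WT kidneys for this gene, and also for Col4a5, Col7a1 and Col5a2 in scaled counts, which is 4 collagen genes beside 3.09% of all genes.

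The spread among CD5L KO kidneys given rCD5L was wide. Col3a1 measured 129.8, 100.1, 160.4, 35.7 and 79.4 FPKM there and 142, 170.1, 179, 206 and 178 FPKM in WT kidneys given rCD5L. Col4a1 measured 126, 106, 194, 76.8 and 94.98 FPKM and 126, 160.4, 119.6, 165 and 167 FPKM, and Col6a1 38.1, 31.8, 88.6, 11.8 and 21.95 FPKM and 37.5, 46.95, 58.1, 42.00 and 61.03 FPKM. Replicate 3 was the highest and replicate 4 the lowest CD5L KO kidney for each of these 3 genes. Without both, an alternative chosen after seeing the data, 12 collagen genes were called and all were lower: Col3a1, Col5a2, Col4a2, Col4a3, Col4a4, Col4a5, Col6a3, Col7a1, Col8a2, Col12a1, Col14a1 and Col16a1. The median was then -0.48, and 644 of 18012 genes were called in all. Because the pair was chosen partly by collagen level, the value tested here, this fit has a narrowed spread. Its calls are no independent support for a difference. With all 19 kidneys in 1 fit 4 of 41 were called, Col4a5, Col7a1, Col12a1 and Col14a1, all lower, beside 1291 of 18454 genes in all, of which 929 were higher. Podocyte markers were below 0 in 6 of 6, with a median of -0.42, and proximal tubule markers above 0 in 6 of 6, with a median of 1.45, and 0 of either list were called. Podocyte markers summed to 645 to 751 CPM in WT and 401 to 668 CPM in CD5L KO kidneys given rCD5L, lowest in replicate 4. The proximal tubule sum was 880 to 1355 CPM in WT and 1124 to 10337 CPM in CD5L KO kidneys. Without replicates 3 and 4 the CD5L KO sums were 550 to 668 CPM for podocyte markers and 1124 to 1239 CPM for proximal tubule markers, the latter within the WT range. Their part in the values of Col4a5 and the other chains was not tested. In replicate 4 not every chain was low: Col4a3 (15.5 FPKM) and Col4a4 (18.02 FPKM) were higher there than in any other kidney. The podocyte sum was the lowest of all kidneys there and the proximal tubule sum the highest. In replicate 3 Col4a3 was at 5.57 FPKM, the lowest of all 19.

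**Figure D4:**
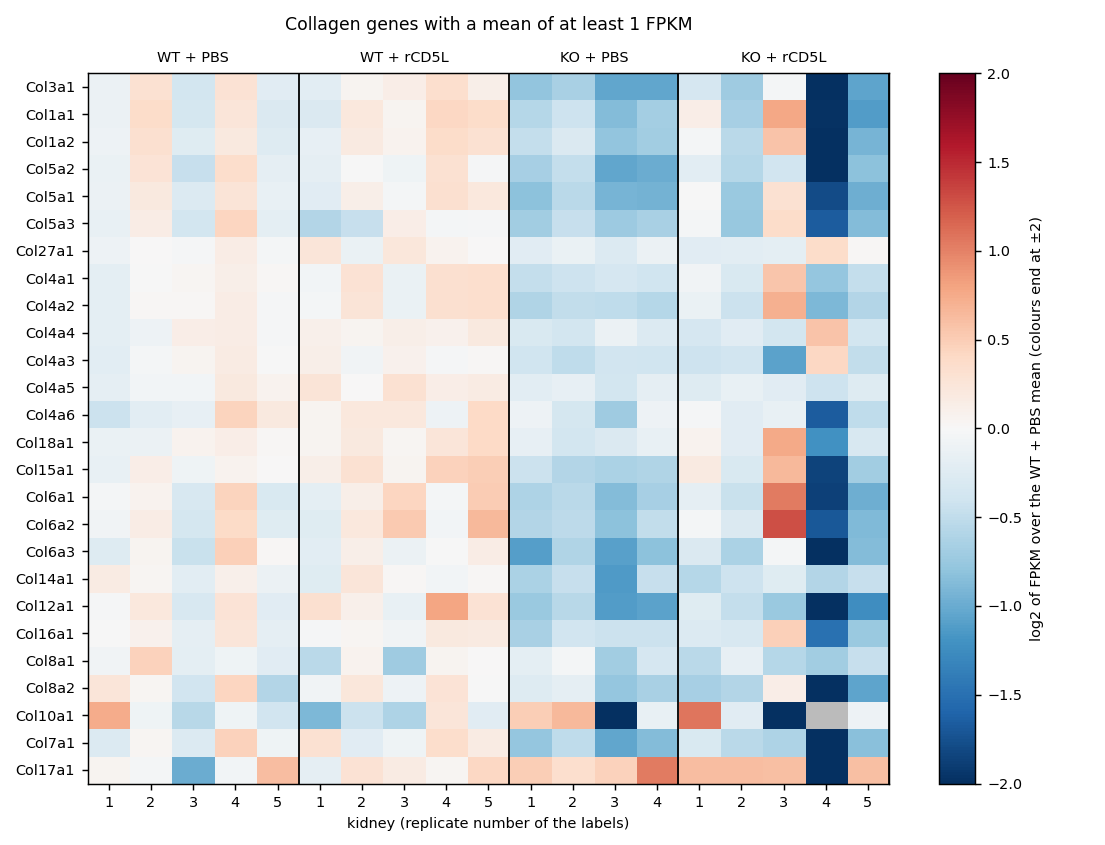
Log2 of FPKM over the mean of the WT kidneys given PBS (colour, ending at ±2, grey where FPKM was 0) for the 26 collagen genes with a mean of at least 1 FPKM, in 19 kidneys. CD5L KO kidneys given PBS are below 0 for Col3a1, Col4a1 and Col6a1, and replicates 3 and 4 of the CD5L KO kidneys given rCD5L lie apart from the rest.

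The third comparison asked whether injected rCD5L altered collagen RNA in mice without CD5L of their own. By edgeR's quasi-likelihood test 0 of 39 collagen genes and 0% of 17467 genes passed, and DESeq2 called 0 collagen genes. At an unadjusted p below 0.05, 1 collagen gene was higher and 0 lower, 2.56% of those tested, beside 1.4% of all genes higher and 1.47% lower. Leaving out 1 kidney gave 0 to 5, the highest without CD5L KO rCD5L replicate 4, and 1 without both kidneys that stood apart. For these refits too, the share of all genes was not counted. The median log2 fold change was 0.16, and 13 of 39 were below 0, beside 46.5% of all genes. The count below 0 was 23 of 39 without replicate 3 of the rCD5L group, 9 without replicate 4 and 11 without both. The sign of the median also depended on 1 kidney, since it was -0.050 without replicate 3, 0.23 without replicate 4 and 0.16 without both. The 5 lowest p-values belonged to Col6a6 (1.06 ± 0.46, standard error), Col6a5 (1.71 ± 0.92), Col28a1 (-0.54 ± 0.33), Col13a1 (0.43 ± 0.27) and Col23a1 (0.39 ± 0.28), each with an adjusted p of 0.897. The fibrillar and type IV chains were not separated: Col3a1 had a log2 fold change of 0.16 ± 0.34, Col1a1 of 0.34 ± 0.45 and Col4a1 of 0.26 ± 0.24 (standard errors). Proximal tubule (6 of 6, median 1.23) and distal markers (6 of 6, median 0.42) were above 0. Urothelium markers (5 of 5, median -0.49) and 8 of 10 fibroblast and myofibroblast markers (median -0.095) were below it, and 0 were called. Without both kidneys that stood apart the proximal tubule sum was 1124 to 1239 CPM, against 893 to 1619 CPM with PBS. Their part in the collagen values was not tested.

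The fourth comparison was rCD5L against PBS in WT kidneys, which make CD5L themselves. By edgeR's quasi-likelihood test 0 of 39 collagen genes and 0% of 17455 genes passed. At an unadjusted p below 0.05, 5 were higher and 0 lower, 12.8% of those tested beside 8.31% of all genes higher and 7.71% lower. In either direction this count was 11 without PBS replicate 4 and 8 without rCD5L replicate 3. As above, the share of all genes in these refits was not counted. The median log2 fold change was 0.092, and 10 of 39 were below 0, beside 48.7% of all genes. Over the collagen genes tested in each fit the median was 0.16 without PBS replicate 4, 0.060 without PBS replicate 1, 0.039 without PBS replicate 3 and 0.042 without rCD5L replicate 4. The 5 at an unadjusted p below 0.05 over all kidneys were Col6a6 (0.88 ± 0.19 on the log2 scale, standard error, adjusted p = 0.104), Col6a5 (1.78 ± 0.46, adjusted p = 0.117), Col15a1 (0.30 ± 0.086, adjusted p = 0.129), Col18a1 (0.19 ± 0.074, adjusted p = 0.232) and Col4a5 (0.18 ± 0.072, adjusted p = 0.247). DESeq2 called the first 3 of these among 508 of 31830 genes, and edgeR without a filter called Col6a5 and Col6a6 among 137 of 31830. The type I and III chains had small differences, 0.17 ± 0.15 for Col1a1, 0.16 ± 0.12 for Col1a2 and 0.092 ± 0.13 for Col3a1.

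Col6a5 and Col6a6 are neighbours on chromosome 9 (105856078 to 105960643 and 105687809 to 105828160, both minus strand) and encode chains of type VI collagen that can replace that of Col6a3. Col6a5 measured 0.368, 0.56, 0.521, 0.531 and 0.345 FPKM in WT kidneys given PBS and 0.325, 1.63, 2.803, 0.614 and 2.61 FPKM in WT kidneys given rCD5L. In CD5L KO kidneys it measured 0.358, 0.436, 0.296 and 0.452 FPKM with PBS and 0.969, 2.32, 2.87, 0.0189 and 0.174 FPKM with rCD5L. Of the 10 kidneys given rCD5L, 7 lay above every PBS kidney, and replicates 4 and 5 of the CD5L KO group lay below all of them. Col6a6 measured 0.246, 0.231, 0.268, 0.227 and 0.198 FPKM with PBS and 0.303, 0.339, 0.611, 0.455 and 0.447 FPKM with rCD5L in WT kidneys, without overlap, as in 1.47% of all genes tested. In CD5L KO kidneys it measured 0.232, 0.107, 0.107 and 0.179 FPKM with PBS and 0.211, 0.366, 0.645, 0.291 and 0.121 FPKM with rCD5L, with overlap. Their neighbour Col6a4 had log2 fold changes of -0.52 in WT and -0.093 in CD5L KO kidneys, and Col6a3 of -0.0090 and 0.25. The sum of epididymis markers moved the same way, and ran from 11.9 to 24.3 CPM with PBS and from 15.8 to 38.9 CPM with rCD5L in WT kidneys, and from 7.87 to 21.3 CPM and 23.3 to 59.0 CPM in CD5L KO kidneys. Of 6 listed, 4 were tested and 0 called in either comparison, 3 of 4 were higher at an unadjusted p below 0.05 in each, with medians of 0.75 in WT and 1.40 in CD5L KO kidneys, and 1 or 2 of the 6 had no count in a whole group. Their part in the values of Col6a5 and Col6a6 was not tested.

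The last test asked whether the effect of rCD5L differed between the genotypes, as an interaction over all 19 kidneys. By edgeR's quasi-likelihood test 0 of 41 collagen genes and 0% of 18454 genes passed, and DESeq2 called 0 collagen genes. At an unadjusted p below 0.05 the count was also 0 of 41, while 6.25% of all genes passed that limit. The 5 lowest p-values belonged to Col4a5 (-0.19 ± 0.11), Col13a1 (0.46 ± 0.29), Col28a1 (-0.54 ± 0.37), Col25a1 (0.72 ± 0.58) and Col14a1 (0.22 ± 0.18), in log2 units with the standard error, with adjusted p from 0.731 to 0.779. The median over the collagen genes was 0.090, and single kidneys moved it from -0.15 to 0.22. Of the CD5L KO kidneys given rCD5L, it was 0.047 without replicate 1, -0.15 without replicate 3, 0.22 without replicate 4, 0.16 without replicate 5 and -0.031 without replicates 3 and 4. It was 0.053 without CD5L KO PBS replicate 3, 0.033 without WT PBS replicate 4 and 0.056 without WT rCD5L replicate 1. Standard errors were 0.37 for Col3a1 and 0.49 for Col1a1. Differences in log2 between the responses of the genotypes that are well above these sizes could therefore have been missed with these kidneys.

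Ratios of chains within a kidney do not depend on its depth and were compared as a description, with no test. Col4a1 to Col4a2 ran from 1.15 to 1.22 in WT kidneys given PBS and from 1.16 to 1.20 in WT kidneys given rCD5L. In CD5L KO kidneys given PBS it ran from 1.24 to 1.33, above all 10 WT kidneys, and in those given rCD5L it was 1.06 in replicate 3 and 1.23 to 1.28 in the other 4, which also lay above all WT kidneys. Col3a1 to Col1a1 ran from 1.33 to 1.46 in WT and from 1.10 to 1.24 in CD5L KO kidneys given PBS, and from 1.18 to 1.48 and 0.804 to 1.48 with rCD5L. Col4a3 to Col4a4 ran from 0.906 to 1.004 in WT and from 0.802 to 0.896 in CD5L KO kidneys given PBS. With rCD5L it ran from 0.85 to 0.971 and from 0.592 to 0.902. Col4a3 shares 5.65% of its exon bases with a gene on the opposite strand, which enters this ratio if strand was not used. The ratios of Col1a1 to Col1a2, Col6a1 to Col6a2 and Col6a3 to Col6a1 overlapped between genotypes with either injection. How often ratios of other gene pairs separate these groups was not counted.

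**Figure D5:**
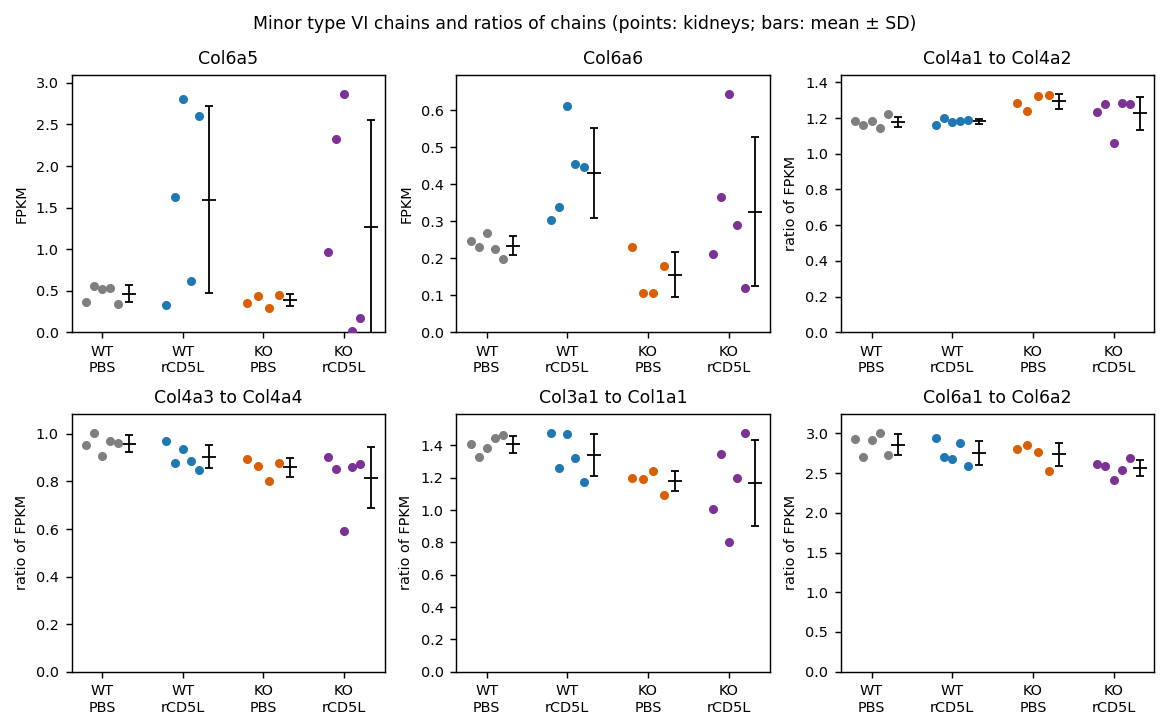
FPKM of Col6a5 and Col6a6, and ratios of FPKM between 4 pairs of collagen chains (vertical axes, from 0), by group, with 1 point per kidney and the mean ± SD as bars (a bar that would pass below 0 ends there). PBS kidneys stay at or below 0.56 FPKM of Col6a5, and the ratio of Col4a1 to Col4a2 is at least 1.24 in every CD5L KO kidney given PBS.

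The pattern of Col3a1, the collagen gene with the highest mean level over all 19 kidneys, was compared with that of 14915 genes by Pearson's correlation of log2 CPM over the 19 kidneys. The 10 genes most like it were Sparc (r = 0.979), Fbn1 (0.979), Col5a2 (0.976), Col5a1 (0.975), Ehd2 (0.968), Sipa1 (0.968), Lamc1 (0.966), Col1a2 (0.961), Cpxm1 (0.959) and Col6a3 (0.959). Among the 35 collagen genes high enough to be ranked, Col27a1 (-0.118), Col4a4 (-0.106) and Col4a3 (-0.0018) had the lowest r with Col3a1. The points share their libraries, include groups that differ and include the kidneys standing apart, so the values describe these 19 kidneys.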

How the data were processed

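Whole obstructed kidneys were sequenced as 150-base read pairs from random-primed libraries. Per the labels and the study's methods, the authors trimmed reads with Trimmomatic, used HISAT2 for alignment to GRCm38 (mm10), and took gene counts from featureCounts. The authors deposited raw counts per gene, and a table of FPKM, which divides counts by gene length and library size. Strand and multi-mapping settings are not given in the sources used here. Columns were matched to samples by the library name in the labels, and 0 columns of per-sample values were left over. As a check for duplicate deposits of a library, same-group libraries were compared by chi-square over genes, and none of the 36 pairs agreed within counting noise (7.07 to 351 per degree of freedom). This says nothing of libraries that stood apart, which were kept.

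Counts were tested with edgeR 4.0.16 (R 4.3.3): filterByExpr with a minimum count of 10, TMM factors and the quasi-likelihood test, fitted on the groups of each comparison over all genes, with Benjamini-Hochberg adjustment over all genes and a threshold of 0.05. The interaction was fitted on all 19 kidneys. FPKM values are shown as levels, and were tested only in the limma alternatives and for single kidneys that lay apart (Dixon). CPM used a prior count of 2 where logged. Scripts were tested on simulated data with known changes. The results were recomputed without a filter, with a floor of 10 counts in all kidneys, with RLE factors, in DESeq2 1.42.0, with all kidneys in 1 fit, with a replicate block, with an offset for length (lowess span 0.3), in limma 3.58.1 on log2 FPKM after adding a pseudocount of 1 or 0.1, and with each kidney left out. Genes given by kidney are the 12 called genes with the lowest p in CD5L KO against WT kidneys given PBS and the most abundant gene of each class, with the 5 lowest p-values named in each comparison. Col6a5 and Col6a6 are also given by kidney, chosen after their values with rCD5L were seen. The collagen genes, the other gene lists and the tests were chosen with earlier results of these data known. Promoter sequence came from RefSeq tables of GRCm38.p6, in which 35 of 44 collagen genes were found. Exon overlap was taken from GENCODE vM21: 13 collagen genes share bases with another gene, and 2 share over 5% (Col4a3 and Col9a3).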

Additional observations from a re-analysis of the deposited data

Results flagged for a closer look

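A kidney was marked where its gap to the nearest kidney of its group took an unusually large share of the group's range (Dixon's test, FPKM). Of 64 sets (16 genes in 4 groups) 3 were marked, and chance marks about 1 in 20. Col17a1 was at 0.257 FPKM in replicate 4 of the CD5L KO kidneys given rCD5L, against 2.12 FPKM in the next lowest, a gap of 0.985 of the range. Col26a1 was at 1.07 FPKM in replicate 3 of the same group, against 0.611 FPKM in the next highest (0.894 of the range). Col8a1 was at 12.2 FPKM in replicate 2 of the WT kidneys given PBS, against 8.52 FPKM in the next highest (0.804 of the range). The first and second of these kidneys are those that stood apart in collagen level. What set these values was not tested.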

How the results depend on the processing

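For CD5L KO against WT kidneys given PBS, 17 collagen genes were called, and 0 with all 19 kidneys in 1 fit. The other fits gave 13 to 23, and leaving out each kidney gave 14 to 20. Calls over all genes moved as well. They ran from 1171 of 24908 genes (limma on log2(FPKM + 1)) to 2571 of 31595 (DESeq2) in the other fits. Leaving out each kidney gave 1015 of 17459 to 2062 of 17492 genes in all. The median of -0.52 was -0.25 in limma on log2(FPKM + 1), a scale that understates changes of low genes. Against 0 called for CD5L KO against WT kidneys given rCD5L, 4 were called with all 19 kidneys in 1 fit and 1 by DESeq2. Without both kidneys that stood apart, a pair chosen partly by collagen level, 12 were called. For rCD5L in WT kidneys, against 0 called, 3 were called by DESeq2 and 2 without a filter. Where no cause is named, the cause was not tested.

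Replicate numbers did not pair the kidneys: deviations from the group means correlated between same-numbered kidneys with r of -0.19 to 0.33 (median 0.0031 over 27 pairs, 7 above 0.1). With the replicate block 23 of 40 collagen genes were called for CD5L KO against WT with PBS, of which 22 lower and Col17a1 higher. That fit called 2132 of 17579 genes in all, 1040 of them higher. In each other comparison 0 collagen genes and 0 genes in all were called with the block.

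Some log2 fold changes changed sign, none of them called in either fit. Col17a1 in CD5L KO against WT with rCD5L became -0.092 in limma on log2(FPKM + 0.1) and -0.012 with the replicate block. For rCD5L in CD5L KO kidneys, where the values over all kidneys were 0.39 for Col23a1, 0.49 for Col6a1, 0.18 for Col18a1, 0.16 for Col3a1, 0.066 for Col26a1 and -0.016 for Col7a1, the value without both kidneys that stood apart was -0.0034 for Col23a1, -0.15 for Col26a1 and 0.23 for Col7a1, and Col7a1 was 0.0025 with the length offset. Leaving out each kidney there gave -0.11 to 0.37 for Col18a1, -0.15 to 0.13 for Col26a1, -0.062 to 0.38 for Col3a1, -0.072 to 0.73 for Col6a1 and -0.17 to 0.22 for Col7a1. For rCD5L in WT kidneys, Col14a1 was -0.0055 with all 19 kidneys in 1 fit, -0.0023 with at least 10 counts in every kidney, -0.0026 in DESeq2, -0.037 with the length offset, -0.0060 with no filter and -0.0029 with RLE factors. Leaving out each kidney gave -0.059 to 0.057 for Col14a1 and -0.011 to 0.36 for Col17a1.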
